A study of Mus musculus with 2 samples.

Results

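Genes of the centrosome, the cilium and the microtubule motors were compared between the mouse mesoangioblast clones D351 and D16. Members were the genes whose symbol begins with 1 of 17 prefixes: Cep, Kif or Ift followed by a digit, Bbs, Dnah, Dnai, Dnal, Dync, Dynl, Tuba, Tubb, Tubg, Haus, Klc, Map1, Mapre or Evc. Only probe sets annotated with a single gene counted, which gave 55 member genes on 73 probe sets, out of 5928 genes on the array. No gene with the prefix Tubg or Mapre was among them. Mesoangioblasts are progenitor cells of the vessel wall. Both clones came from dorsal aorta explants of C57BL6 embryos at embryonic day 9.5, were cloned by limiting dilution over mitomycin-treated primary embryonic fibroblasts, and were then passaged on gelatin. No genetic change or drug treatment of either clone is given. Each clone is a single line with 1 array of total RNA on the C chip of the U74 set, so every difference below lacks a replicate check and is described by its size.

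The centrosome is the main microtubule organizing centre of an animal cell. It is built around a pair of centrioles, which duplicate once in each cell cycle, and the older centriole can dock at the cell surface and grow a primary cilium. Tubulin polymers form the spindle and the cilium's axoneme, kinesins and dyneins walk along them, and intraflagellar transport carries cargo in the cilium. In vascular tissue the primary cilium is known as a sensor of flow and of hedgehog signals.

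Intensities were linear and were used as deposited. A value at or below 6.4, the median of all values without the manufacturer's controls, is called dim, and a gene is called measured if either clone exceeds 6.4. For log2 ratios 6.4 took the place of every dim value, so a ratio with 1 dim side is a lower bound, written "at least", and leaves a wider difference possible. Ratios are D351 minus D16 on the log2 scale, by the gene's brightest probe set, and a gene at least 2-fold apart is called higher in that clone. The median intensity was 6.2 in D351 and 6.5 in D16. Bacterial and yeast control probe sets reached 11.2, so values up to about that height cannot be told from background. The hybridization controls had a median log2 ratio of -0.67, and scaling to them gave all measured genes a median of 0.58 in place of -0.022. All directions are therefore relative to the array as a whole. Where a gene had several probe sets that both clones lit above 6.4 (409 genes), its 2 brightest differed in log2 ratio with an SD of 0.67 per probe set. That gives the size of disagreement to keep in mind for a single probe set.

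As a whole, the members differed between the clones about as often as any other genes. Of 40 measured member genes, 4 were at least 2-fold higher in D351 (Cep63, Cep170b, Map1b and Evc2) and 5 in D16 (Kif22, Cep135, Dync1li2, Kif14 and Map1a). That is 22.5% of the measured members, against a background of 20.5% of all 3934 measured genes, and by direction 10.0% against 10.3% towards D351 and 12.5% against 10.2% towards D16. Their median log2 ratio was -0.075, beside -0.022 over all measured genes, with 19 members above 0 and 21 below. Scaled to the hybridization controls, all 5 genes higher in D16 came under 2-fold (Dync1li2 to 1.47-fold and Map1a to 1.33-fold), and 11 of 39 measured members were higher in D351, beside 27.5% of all measured genes under that scaling. The 9 called genes came from 5 of the 8 subfamilies and not from a single structure. Of the 55 members, 15 were dim in both clones, 33 were above the floor in both, 4 were dim in D16 alone and 3 in D351 alone. Measured members are those above 6.4 somewhere, so these counts do not speak for all 55.

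**Figure D1:**
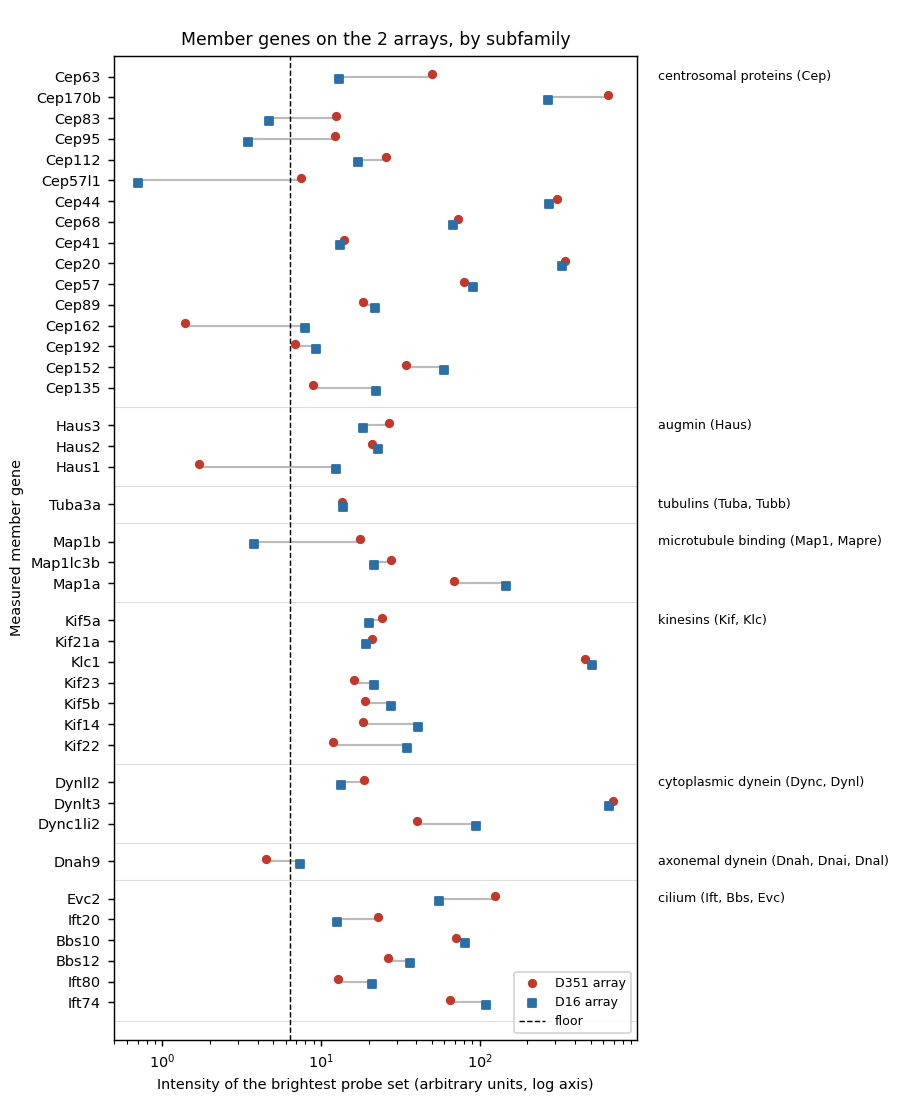
Intensity of the brightest probe set (horizontal log axis, arbitrary units) of the 40 measured member genes, grouped by subfamily, with red circles for the D351 array and blue squares for the D16 array, 1 array each. The dashed line is the floor of 6.4; most pairs of points lie close together, and 4 genes are dim in D16 alone and 3 in D351 alone.

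**Figure D2:**
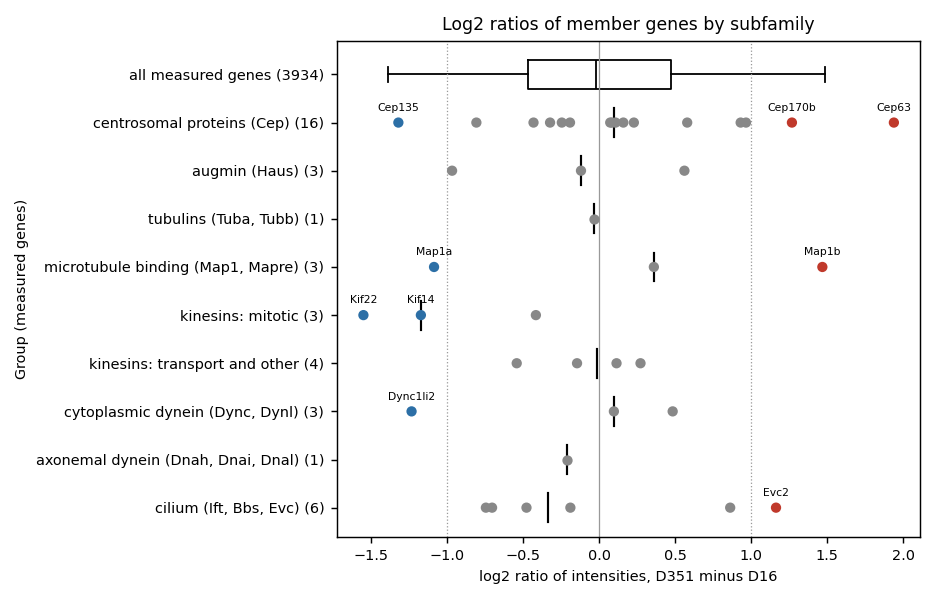
Log2 ratio, D351 minus D16, of each measured member gene by subfamily, with kinesins divided by role; black ticks are group medians, red and blue points lie at least 2-fold towards D351 and D16, and numbers in brackets count genes. The box gives all 3934 measured genes (quartiles -0.47 and 0.47, whiskers at the percentiles 5 and 95, -1.38 and 1.49), a range that only Cep63 and Kif22 among the members exceed.

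The centrosomal Cep genes were the largest subfamily, with 22 members and 16 measured. Of these, 2 were called towards D351 and 1 towards D16, beside 10.3% and 10.2% of all measured genes. The subfamily's median log2 ratio was 0.097 (-0.19 over the 11 measured by probe sets without a mark, where a mark is a letter in the identifier that denotes relaxed probe choice or shared sequence). Cep63, which brings Cep152 to the parent centriole when a new one is built, had an intensity of 49.8 in D351 and 13.0 in D16, a 3.83-fold difference. Its D16 value is only a little above the brightest bacterial or yeast control, and its only probe set carries a mark. With the floor raised to 20.7, the 75th percentile, Cep63 was still at least 2.41-fold higher in D351. Cep152, its partner, went the other way without reaching 2-fold, at 34.2 in D351 and 59.8 in D16 (log2 ratio -0.81). Cep57, which joins both in a ring around the centriole, stood at 79.9 in D351 and 91.2 in D16, and a second probe set at 11.6 and 13.0. Its remaining probe sets were dim in both clones. The 3 partners of this ring thus gave log2 ratios of 1.94, -0.81 and -0.19.

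Cep170b, a relative of the centriolar appendage protein Cep170, was higher in D351. Its intensity was 645 in D351 and 267.9 in D16, a 2.41-fold difference far above background on both arrays. It too was read by a single marked probe set. Cep135, a structural protein of the centriole wall and cartwheel, was higher in D16, at 8.9 in D351 and 22.2 in D16 (2.49-fold). The D351 value is no brighter than the top negative control. At a floor of 20.7 the difference came to at least 1.07-fold, and Cep135 was not called.

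The windows upstream of Cep63 and Cep135 are shown because these centriole genes were called in opposite clones. They are 250 bases before the start of each gene, from RefSeq (GRCm38.p6), written in the direction of the gene. Capitals mark the motifs searched on both strands: the CCAAT box, the letters TTTGAA as core of the cell cycle homology region, and GTTGCC as one arm of the X-box that RFX factors bind. No motif shares letters with another in these stretches. Cep63 has none of these letters in the stretch, and Cep135 has a CCAAT box on the opposite strand that begins 127 bases upstream.
Cep63 promoter, chr9:102626125-102626374, minus strand: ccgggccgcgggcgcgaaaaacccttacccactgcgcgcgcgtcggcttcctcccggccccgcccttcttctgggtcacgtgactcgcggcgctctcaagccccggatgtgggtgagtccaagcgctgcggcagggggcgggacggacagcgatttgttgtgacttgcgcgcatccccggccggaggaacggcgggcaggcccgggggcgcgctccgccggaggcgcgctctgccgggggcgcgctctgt
Cep135 promoter, chr5:76588449-76588698, plus strand: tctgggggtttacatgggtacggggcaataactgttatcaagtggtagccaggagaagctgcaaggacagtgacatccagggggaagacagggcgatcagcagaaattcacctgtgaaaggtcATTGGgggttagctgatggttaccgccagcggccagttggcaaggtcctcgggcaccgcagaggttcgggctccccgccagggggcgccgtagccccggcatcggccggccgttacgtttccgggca

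Among the other measured Cep genes, those of the distal appendages that anchor the centriole to the membrane were at moderate or low intensity. Cep83 stood at 12.5 in D351 and was dim at 4.7 in D16, at least 1.95-fold higher in D351. Cep89 of the same appendages stood at 18.4 in D351 and 21.8 in D16. Cep95 was at 12.2 in D351 and dim at 3.5 in D16, at least 1.91-fold higher in D351. These bounds left Cep83 and Cep95 uncalled, but with the floor at 1.8, the 25th percentile, their log2 ratios were 1.41 and 1.80, and scaled to the hybridization controls 1.30 and 1.27, all past 2-fold. All 4 values of this pair are close to or under the brightest negative control. Cep20, Cep44 and Cep68 differed by at most 1.12-fold. Cep20, a centriolar satellite protein, stood at 346.1 in D351 and 328.9 in D16, and Cep44, which binds the inner centriole, at 306.6 and 274.5. Cep68, of the linker that holds the centrioles together, stood at 73.1 in D351 and 67.8 in D16. With dim values at 6.4, log2 ratios of the remaining measured Cep genes ran from -0.43 for Cep192, a scaffold of the pericentriolar material (6.9 in D351 and 9.3 in D16), to 0.58 for Cep112 (25.7 and 17.2). Between them lay Cep162 (at least 1.25-fold towards D16, dim in D351), Cep41 (14.0 in D351 and 13.2 in D16) and Cep57l1 (7.5 in D351 and dim in D16, at least 1.17-fold towards D351, and at a log2 ratio of 2.06 with the floor at 1.8). Cep55, Cep70, Cep43, Cep126, Cep250 and Cep350 were dim in both clones.

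Augmin, the complex that starts new microtubules on the sides of existing spindle microtubules, had 3 members, all measured. None was called, beside 20.5% of all measured genes. Haus1 was dim at 1.7 in D351 and stood at 12.5 in D16, at least 1.95-fold higher in D16. Its log2 ratio was -2.80 with the floor at 1.8 and -1.22 with a pseudocount, both past 2-fold towards D16. Scaled to the hybridization controls it was -0.63, under 2-fold, and at a floor of 20.7 neither clone exceeded it. The D16 value of Haus1 is only a little above the brightest negative control, 11.2, and the floor of 1.8 is under the negative controls' median of 1.9. Haus2 stood at 21.0 in D351 and 22.8 in D16, and its other probe set at 6.4, which is dim, and 10.8. Haus3 stood at 27.0 in D351 and 18.3 in D16. The 3 subunits therefore had no common direction. Of the tubulins, the building blocks of microtubules, Tuba3a stood at 13.5 in D351 and 13.8 in D16, and Tubb1, known as the beta-tubulin of platelets, was dim in both clones.

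The 3 measured mitotic kinesins lay towards D16 (Kif23 not so when scaled to the hybridization controls). Kif22 and Kif14 passed 2-fold, while Kif23 and the other measured kinesins were all under it. Of 10 kinesin genes, light chain included, 7 were measured. Of these, 2 were higher in D16 and none in D351, beside 10.2% and 10.3% of all measured genes. Their median log2 ratio was -0.42. Kif22, a chromokinesin that pushes chromosome arms to the spindle equator, had an intensity of 12.0 in D351 and 35.1 in D16, a 2.92-fold difference. Its only probe set carries a mark, and its D351 value is only a little above the brightest negative control. Kif14, which acts at the midbody in cytokinesis, had 18.3 in D351 and 41.2 in D16, a 2.25-fold difference. Kif23, the motor of the centralspindlin complex, had 16.2 in D351 and 21.6 in D16 by its brightest probe set, 1.33-fold higher in D16, and another read 9.4 and 10.4, no higher than the negative controls. Kif11, the motor that separates the spindle poles, was dim in both clones.

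The 3 measured mitotic kinesins had a median log2 ratio of -1.17. Scaled to the hybridization controls their median was -0.50, none passed 2-fold and Kif23 turned to 0.26, but relative to the median of all genes under that scaling the group stood at -1.08. At a floor of 20.7, Kif22 was at least 1.70-fold and Kif14 at least 1.99-fold higher in D16, so neither was called. Spindle genes outside the members lay in the same direction as deposited. Of 12 such genes on the array, 10 were measured, and all 10 had a log2 ratio below 0, with a median of -1.34. Of these, 6 were at least 2-fold higher in D16, beside 10.2% of all measured genes. Over unmarked probe sets 6 spindle genes were measured, all below 0, with a median of -0.96. Among them 3 were called towards D16, beside 10.1% of all genes measured that way. The list was chosen with earlier results of these data known. Ska1, of the complex that tracks microtubule ends at the kinetochore, had 36.8 in D351 and 202 in D16, a log2 ratio of -2.46. Ndc80, of the main microtubule receptor of the kinetochore, had 83.1 in D351 and 230.1 in D16, and Nusap1, which bundles spindle microtubules, had 42.0 in D351 and 109 in D16. Anln, the scaffold of the cleavage furrow, had 30.1 in D351 and 78.7 in D16. Ska1 and Nusap1 were each read by a single marked probe set, and Ndc80 and Anln by an unmarked one. Scaled to the hybridization controls, 6 of these 10 stayed below 0, 1 was past 2-fold, and the median was -1.25 relative to all genes. The part of this spindle difference in the kinesin values was not tested. In RNA from whole cultures, fewer cells of a type and less RNA per cell cannot be told apart.

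The mitotic kinesin promoters are shown because these genes lay in the same direction. Each line gives the 250 bases upstream of the start (RefSeq, GRCm38.p6), read along the gene, with the same motifs in capitals.
Kif14 promoter, chr1:136467598-136467847, plus strand: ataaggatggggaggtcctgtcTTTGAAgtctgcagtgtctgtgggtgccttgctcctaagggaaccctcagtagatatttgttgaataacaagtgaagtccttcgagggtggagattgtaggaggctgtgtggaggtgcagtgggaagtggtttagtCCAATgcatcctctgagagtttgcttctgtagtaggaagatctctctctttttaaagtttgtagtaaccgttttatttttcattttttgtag
Kif22 promoter, chr7:127042421-127042670, minus strand: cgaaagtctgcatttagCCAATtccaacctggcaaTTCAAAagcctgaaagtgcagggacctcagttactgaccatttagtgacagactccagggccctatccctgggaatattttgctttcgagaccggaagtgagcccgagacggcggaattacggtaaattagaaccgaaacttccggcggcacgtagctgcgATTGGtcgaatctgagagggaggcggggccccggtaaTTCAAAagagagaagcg
Kif23 promoter, chr9:61946800-61947049, minus strand: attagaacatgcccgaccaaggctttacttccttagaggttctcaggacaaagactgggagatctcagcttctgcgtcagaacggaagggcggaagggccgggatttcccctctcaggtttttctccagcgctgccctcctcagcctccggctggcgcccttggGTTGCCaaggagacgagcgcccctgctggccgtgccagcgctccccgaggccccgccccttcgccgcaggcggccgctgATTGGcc
All 3 windows hold TTTGAA and CCAAT on one strand or the other. In the window of 300 bases that was searched, which runs to 50 bases past the start, TTTGAA is found in 17.9% of 32851 RefSeq windows and CCAAT in 37.4%. The TTTGAA of Kif23 begins 2 bases past the start and is not in the stretch printed. That of Kif22 closest to the start begins 17 bases upstream and its nearest CCAAT box 54 bases upstream, both on the opposite strand, while Kif14 carries TTTGAA 228 bases upstream. Among the called members with a window, CCAAT is present in 4 of 4 higher in D16 (Kif14, Kif22, Cep135 and Map1a) and in 0 of 4 higher in D351. TTTGAA is present in 2 of 4 higher in D16 and 1 of 4 higher in D351, and GTTGCC in 0 of 4 higher in D16 and 2 of 4 higher in D351. Over all 33 measured members with a window, 57.6% hold CCAAT, 24.2% TTTGAA and 21.2% GTTGCC, beside 41.1%, 20.2% and 14.1% of all 27025 genes with windows. Member windows are also richer in G and C, with a median of 62.8% against 52.7%. The Kif14 window differs, at 43.7% and with 3 CG pairs, against a median of 23 such pairs over the member windows. Whether transcription of Kif14 starts at this annotated position was not tested, so its place in the counts above is uncertain. These matches describe letters in a window and no binding was measured.

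Kinesins of cargo transport gave small ratios. The heavy chain gene Kif5b stood at 18.9 in D351 and 27.5 in D16. Kif5a, the heavy chain known from neurons, was the member whose probe sets disagreed in direction by more than 0.5 log2, at 24.4 in D351 and 20.2 in D16 by the brightest and at 13.3 and 19.3 by the other. Kif21a stood at 20.9 in D351 and 19.3 in D16. The light chain Klc1, which ties conventional kinesin to its cargo, stood at 462.9 in D351 and 511.7 in D16. The ciliary kinesins Kif17 and Kif19a were dim in both clones.

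Cytoplasmic dynein, the motor that walks towards the centrosome, had 1 of 3 measured subunits past 2-fold, beside 20.5% of all measured genes. Dync1li2, a light intermediate chain that links the motor to cargo adaptors, had an intensity of 40.4 in D351 and 94.9 in D16, 2.35-fold higher in D16. Its only probe set carries a mark, and the difference also held with the floor at 20.7. The light chains were closer together. Dynlt3 stood at 694.3 in D351 and 648.9 in D16 by a marked probe set, and its other probe sets were dim in both clones. Dynll2 stood at 18.6 in D351 and 13.3 in D16. Dynlrb2 was dim in both clones. Dynactin and adaptor genes outside the members gave 1 of 6 measured past 2-fold, beside 20.5% of all measured genes. This was Actr1a, the actin-related protein of the dynactin filament. It had 241.7 in D351 and 74.4 in D16 by its brightest probe set, but 71.4 and 44.9 by a second and 8.1 and 13.9 by another, so the probe sets do not share a direction.

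Map1a and Map1b, related proteins that bind and stabilize microtubules and are best known from neurons, were called in opposite clones. Map1b had 17.7 in D351 and was dim at 3.8 in D16, at least 2.77-fold higher in D351. At a floor of 20.7 neither clone exceeded it. Map1a had 69.0 in D351 and 146.3 in D16, 2.12-fold higher in D16 and well above background on both arrays. Both were read by 1 probe set without a mark. Map1lc3b, a protein of the autophagosome membrane also found with Map1 proteins, stood at 27.6 in D351 and 21.5 in D16, and Map1lc3a was dim in both. Of 6 markers of neurons on the array, 5 were measured and none passed 2-fold by its brightest probe set, beside 20.5% of all measured genes. Their summed intensities were 175.8 in D351 and 173.2 in D16, most of it from Stmn3. Elavl4 was at 0.3 on both arrays, Stmn3 at 109 in D351 and 117.1 in D16, and Syn1 at 32.6 in D351 and 17.5 in D16. A second probe set of Stmn3 was dim at 4.6 in D351 and stood at 15.9 in D16, at least 2.48-fold higher in D16. Of 11 measured microtubule regulators outside the members, 1 was called towards D351 and 1 towards D16, beside 10.3% and 10.2% of all measured genes. Katnal1, a katanin subunit that severs microtubules, was higher in D351 (28.6 in D351 and 10.2 in D16). Tube1, the epsilon-tubulin of the centriole, was higher in D16 (9.6 in D351 and 21.2 in D16). Each gene's lower value is under the brightest negative control, and with the floor at 20.7 neither was called (at least 1.38-fold and at least 1.02-fold). Tube1 was also under 2-fold with the pseudocount and when scaled to the hybridization controls. Dclk1 fell just short of the limit, at 158.3 in D351 and 79.2 in D16 by a marked probe set (log2 ratio 0.999). Atat1 stood at 59.5 in D351 and 68.5 in D16 by its brightest probe set. Its unmarked probe sets read 68.5 in D351 and 32.9 in D16, which is 2.08-fold, and 40.2 and 40.6.

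Evc2 was the called gene of the cilium. Its product sits at the base of the primary cilium and passes on hedgehog signals, and it had an intensity of 124.5 in D351 and 55.6 in D16, 2.24-fold higher in D351. An unmarked probe set read it, and it stayed past 2-fold in the 9 alternatives that keep the 2-fold rule. Of the 3 intraflagellar transport genes among the members, Ift74 and Ift80 lay towards D16 and Ift20 towards D351. Ift74 stood at 65.4 in D351 and 109.5 in D16, and its other probe set was dim in both clones. Ift80 stood at 12.9 in D351 and 21.0 in D16 by its brightest probe set and at 6.9 and 10.9 by another. Ift20, which also works at the Golgi, stood at 22.9 in D351 and 12.6 in D16. Ift74, Ift80 and Ift20 belong to the same transport complex and gave log2 ratios of -0.74, -0.70 and 0.86, each under 2-fold. Bbs10 and Bbs12, chaperonin-like proteins that help to assemble the BBSome, stood at 71.0 and 26.3 in D351 and at 80.9 and 36.6 in D16. The 6 cilium genes were all measured, with a median of -0.33.

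Of hedgehog and cilium gate genes outside the members, 14 were measured. Of these, 1 was called towards D16 and none towards D351, beside 10.2% and 10.3% of all measured genes. Their median was -0.17 by the brightest probe sets and -0.086 with the mean over probe sets. Rpgrip1l stood at 17.8 in D351 and 19.5 in D16 by its brightest probe set. Its other one had 12.9 in D351 and was dim at 3.7 in D16, at least 2.02-fold higher in D351. The gene called was Cluap1, an intraflagellar transport protein, at 13.0 in D351 and 46.3 in D16 by a single marked probe set. It lay towards D16, as did Ift74 and Ift80. The hedgehog transcription factors Gli2 and Gli3 stood at 55.3 and 236.5 in D351 and at 71.1 and 176.2 in D16. Of 5 measured genes of the centriole and centrosome outside the members, Stil starts centriole duplication. It had 22.6 in D351 and 173.1 in D16 by a single marked probe set. The other four lay below 0 by their brightest probe set, all under 2-fold, but a second probe set lay above 0 for Ofd1 (10.4 in D351 and dim at 3.8 in D16) and Mzt2 (42.7 in D351 and 37.6 in D16). By the brightest probe set and scaled to the hybridization controls only Stil stayed below 0. Over unmarked probe sets 2 genes of this list were measured, none was called and the median log2 ratio was -0.0255.

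The axonemal dyneins, the motors that bend motile cilia, were dim or near background in both clones. Of 4 members, Dnah5, Dnaic1 and Dnali1 were dim in both clones and Dnah9 stood at 4.5 in D351, which is dim, and 7.4 in D16. Of 9 markers of multiciliated cells on the array, 5 were measured and none was called, beside 20.5% of all measured genes. Hydin stood at 23.8 in D351 and 17.1 in D16, and Ak7 at 18.4 in D351 and 17.3 in D16. The list's summed intensity was 70.5 in D351 and 57.1 in D16, and Ccdc39, Ccdc113 and Cfap43 were at 1.0 or lower on both arrays. In all, the 18 probe sets of the 15 members dim in both clones read 0.2 to 6.2 in D351 and 0.2 to 5.6 in D16.

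**Figure D3:**
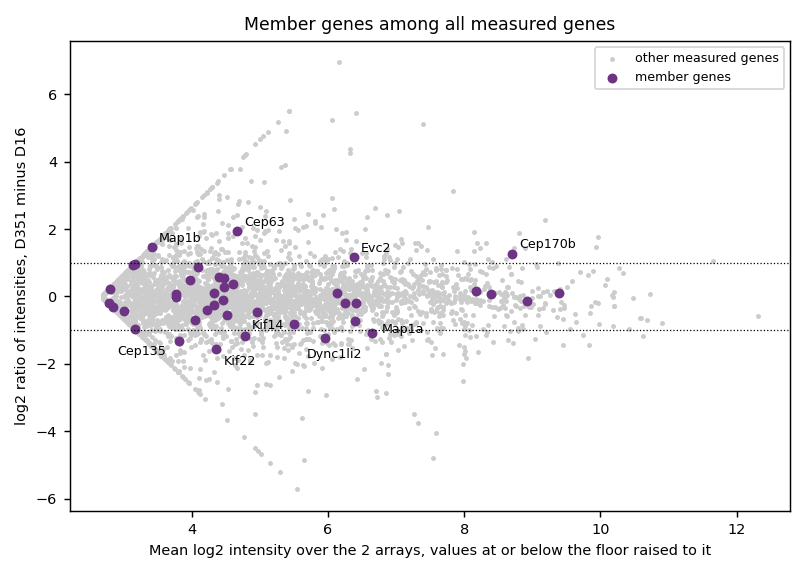
Log2 ratio, D351 minus D16, against mean log2 intensity for the 40 measured member genes (purple) and all other measured genes (grey); dotted lines mark 2-fold. The 9 called members lie inside the cloud of other genes, and the rest of the 40 lie between the dotted lines with dim values set to 6.4.

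**Figure D4:**
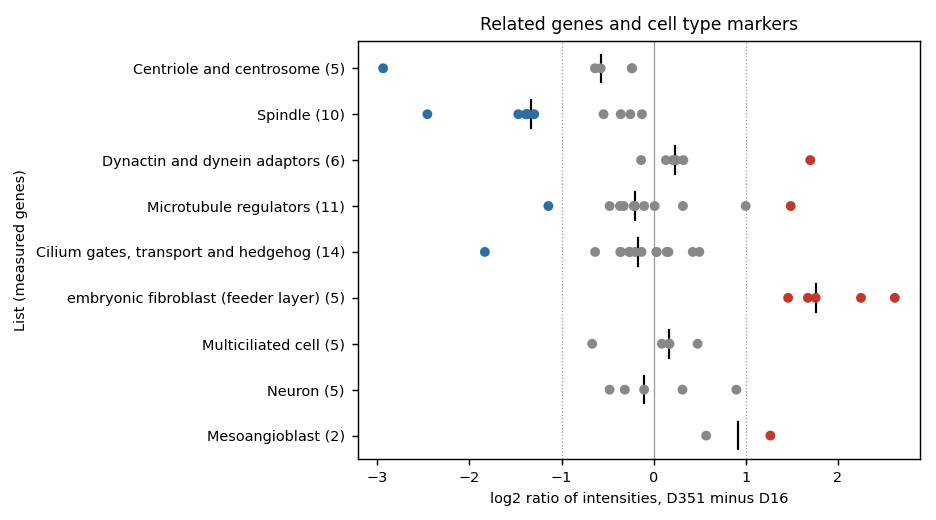
Log2 ratio, D351 minus D16, of measured genes on lists outside the members, with black ticks at the list medians and red and blue points at least 2-fold towards D351 and D16. All 10 spindle genes lie below 0 (6 of 10 when scaled to the hybridization controls), and all 5 fibroblast markers lie past 2-fold towards D351.

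Markers of embryonic fibroblasts, the feeder cells of the cloning step, lay in the direction of the genes higher in D351. Of 6 on the array 5 were measured, and each was called towards D351, beside 10.3% of all measured genes. This list too was chosen with earlier results of these data known, so the count is no independent check. Mfap5 stood at 257.2 in D351 and 41.9 in D16. Summed intensities were 2406 in D351 and 672.9 in D16, mostly from the marked probe set of Col5a1 (1838.3 and 543.2). A second probe set of Fgf10 was only 1.6-fold higher in D351. Col5a2 was near 0 on both arrays. Their part in the values of Cep63, Cep170b, Map1b and Evc2 was not tested. Of 12 mesoangioblast markers listed, Acta2 and Kdr were the ones on this array. Acta2 stood at 15.4 in D351 and was dim in D16, Kdr stood at 9.5 in D351 and was dim in D16, so the array gives little check of the cell type.

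None of the 9 called members had a second measured probe set. Cep135, Evc2, Kif14, Map1a and Map1b were read by an unmarked probe set, and Cep63, Cep170b, Dync1li2 and Kif22 by a marked one. Over unmarked probe sets, 26 members were measured, of which 2 were called towards D351 and 3 towards D16, against a background of 20.6% of 2524 genes past 2-fold in either direction. Second measured probe sets of Cep162, Haus2, Ift80, Kif23 and Klc1 read no higher than the negative controls, so their directions are no check.

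**Figure D5:**
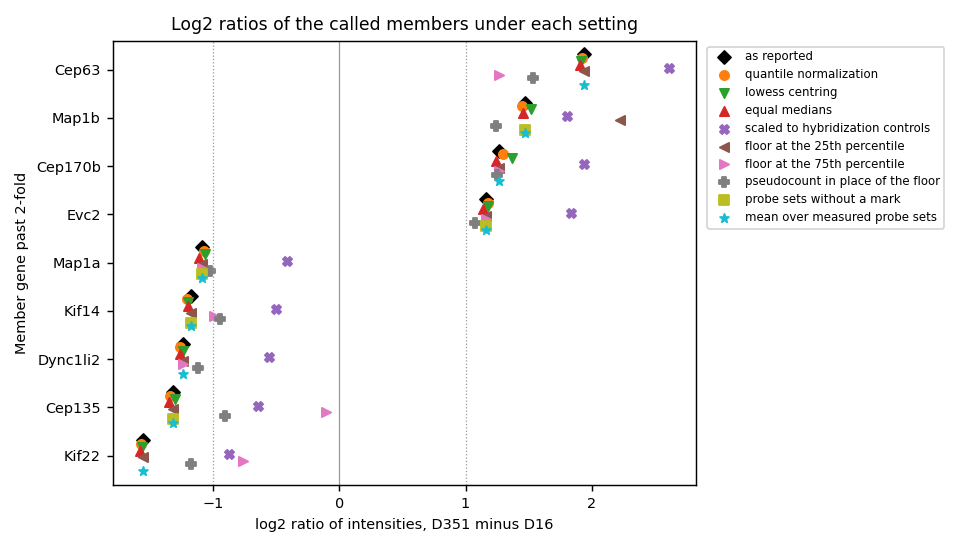
Log2 ratio, D351 minus D16, of the 9 called members as reported (black diamonds) and under 9 alternative settings (other symbols); dotted lines mark 2-fold. Every point keeps its side of 0, and scaling to the hybridization controls brings the 5 genes higher in D16 inside 2-fold.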

How the data were processed

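The deposited table held 1 linear intensity per probe set for each of 2 arrays, 11934 probe sets in all. How the intensities were summarised is not given in the sources used here. Detection calls were not used. The mean without the lowest and highest 2% was 20.01 on both arrays, and values were used as deposited. The 66 control probe sets were set aside. Of 11868 others, 7717 had a single gene in the platform annotation, 150 had several and 4001 were unnamed here. The RefSeq table of GRCm38.p6 held all 55 member genes, and 0 symbols changed. A gene was represented by the probe set with the highest mean floored log2 value. With 1 array per clone no test was made, and precision is limited by the number of arrays. The members and lists were chosen with earlier results of these data known.

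Values are given for members past 2-fold, the 3 brightest of each subfamily, those nearest the limit and those whose probe sets disagree beyond 0.5 log2, and for the other measured members so that each is accounted for. From each related list up to 4 genes past 2-fold in each direction were named, the widest first. Alternatives were quantile normalization, lowess centring (span 0.3), equal medians, scaling to 9 hybridization control probe sets, floors at the percentiles 25 and 75, a pseudocount of 6.4, a 3-fold rule, unmarked probe sets and the mean over probe sets. The procedure was tested on simulated data with less noise than the disagreement between probe sets here. The planted changes were wider than 2-fold and in brighter probe sets only, so the test does not gauge the 2-fold calls. Software was Python 3.11.15, numpy 2.4.6, pandas 2.3.3, statsmodels 0.14.6 and matplotlib 3.10.9.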

Additional observations from a re-analysis of the deposited data

How the results depend on the processing

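The reported values are 4 members called towards D351, 5 towards D16 and a median log2 ratio of -0.075. The counts stayed within 1.5 times and the median within 0.1 under quantile normalization, lowess centring, equal medians, the pseudocount and the mean over probe sets. Scaled to the hybridization controls, 11 members were called towards D351 and 0 towards D16 of 39 measured, beside 27.5% and 3.67% of all measured genes. The median was 0.57, which is -0.019 relative to all genes under that scaling. With the floor at the percentile 25, 1.8, 9 members were higher in D351 and 7 in D16 of 50 measured, beside 29.9% of all genes past 2-fold. With the floor at the percentile 75, 20.7, they were 3 and 2 of 29, beside 16.2%. By a 3-fold rule 1 member was higher in D351 and 0 in D16, beside 8.13% of all genes. Over unmarked probe sets 2 lay past 2-fold towards D351 and 3 towards D16 of 26, beside 20.6%, and the median was -0.20. Cep63, Cep170b, Map1b and Evc2 stayed past 2-fold under every alternative that gave them a value. Map1b had no value with the floor at 20.7, and Cep63 and Cep170b had none over unmarked probe sets. Of the 5 higher in D16, all came under 2-fold when scaled to the hybridization controls, Cep135, Kif14 and Kif22 with the floor at 20.7, and Cep135 and Kif14 with the pseudocount. None of these 9 turned its direction. No paired analysis was possible because each clone has 1 array. Values up to 11.2, the height of the negative controls, limit what can be said of dim members.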

Other observations

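Several light chain genes of dynein share probe sets and were left out of the members. Of the probe sets annotated with Dynlt1a, Dynlt1b, Dynlt1c and Dynlt1f together, 1 read 45.9 in D351 and 60.0 in D16 and the other 11.0 in D351 and 12.6 in D16, both under 2-fold. A probe set shared by Tuba1b and Gm5620 was dim in both clones, at 3.3 in D351 and 5.2 in D16.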
